A study of Mus musculus with 18 samples.

Results

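Protein kinase A (PKA) and calmodulin relay the second messengers cyclic AMP and calcium, and the genes that encode them were followed from mRNA to ribosome footprint in mouse embryos. The genes were chosen from the signalling network drawn by the study, which has 170 genes, by symbols that begin with Prkaca, Prkacb, Prkar or Calm. The 8 genes described are 2 catalytic and 4 regulatory PKA subunits and the calmodulins *Calm2* and *Calm3*. All 8 were found by their identifiers in the mesoderm table of 12064 genes and in the table of 11231 genes shared by neural tubes (NT) and forelimb buds (FL). RNA-Seq measured mRNA and Ribo-Seq measured ribosome-protected fragments (RPFs), the pieces of mRNA covered by translating ribosomes, in E11.5 embryos with 3 replicates for each of 6 conditions, or 18 libraries. The mesoderm was sorted as GFP+ cells from R26-mTmGflox/+; Tg(T-cre)1LWD/J/+ embryos, in which T-Cre marks descendants of the primitive streak, so it mixes many mesodermal cell types. NT and FL were dissected from the same FVB embryos without sorting, the mothers of all embryos were 3 to 8 months old, and every tissue was handled in cycloheximide. The replicates are described as biological, but the labels do not say which came from separate litters, so p-values measure the spread between these libraries.

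In the resting PKA holoenzyme, regulatory subunits hold the catalytic subunits inactive, and cyclic AMP made by adenylyl cyclases releases them. In embryos PKA is known for its inhibition of Shh signalling through phosphorylation of the Gli factors, in both the neural tube and the limb bud. Calmodulin is a small calcium sensor that binds and switches many kinases, phosphatases and channels, and mammals make the same protein from several separate genes.

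The sequences of the set bear on how well reads could be told apart, since the reads were counted on coding sequences (CDSs). In the GENCODE M21 annotation of GRCm38 (mm10), *Calm2* lies on the - strand at chr17:87433412-87446935 and *Calm3* on the - strand at chr7:16915379-16924114. The principal isoform of each has 6 exons and a CDS of 450 nt. The translated proteins were identical, yet the CDSs differed at 78 bases, of which 74 were the third base of a codon. The first 10 codons that the authors counted, codons 16 to 25 of exon 3, are shown to make this visible, with the 6 bases that differ between the genes in capitals.
Calm2: gcTttctcActAttTgacaaggaCggGgat
Calm3: gcCttctcCctCttCgacaaggaTggAgat
These 30 bases lie at chr17:87435894-87435923 and chr7:16917688-16917717. Every aligned window of 28 nt, the shortest footprint length kept, differed by at least 2 bases between *Calm2* and *Calm3*, with a median of 5 differences. No 28-nt window of their counted CDSs was found in a transcript of another protein-coding gene, but 252 of the 360 windows of *Calm2* and 120 of the 360 of *Calm3* were found in annotated processed pseudogenes. Whether those pseudogenes stood among the transcripts used for alignment, and how many mismatches were allowed, was not tested. The levels of both genes are therefore less certain than those of the regulatory subunits, described next.

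Regulatory subunits carry a short inhibitor site that fills the active site of the catalytic subunit, which type II subunits (*Prkar2a*, *Prkar2b*) present as a true substrate and type I subunits (*Prkar1a*, *Prkar1b*) as a pseudosubstrate. The codons of this site are printed with the codon at the phosphate-accepting position in capitals, to show what separates the types in the CDS.
Prkar1a: cgccgaggtGCTatc
Prkar1b: cggcggggcGGTgtg
Prkar2a: agacgagtaTCAgtc
Prkar2b: aggcgtgccTCGgtc
The capitals read alanine in *Prkar1a*, glycine in *Prkar1b* and serine in *Prkar2a* and *Prkar2b*. The site spans codons 96 to 100 of *Prkar1a* (exon 4, chr11:109660107-109660121, + strand) and of *Prkar1b* (exon 3, chr5:139108532-139108546, - strand). In *Prkar2a* it spans codons 94 to 98 (chr9:108714296-108716864, + strand) and in *Prkar2b* codons 109 to 113 (chr12:31993782-32038634, - strand), and both cross from exon 2 to exon 3. The proteins of *Prkar1a* and *Prkar1b* were 82.4% identical, those of *Prkar2a* and *Prkar2b* 66.2%, and those of the catalytic subunits *Prkaca* (chr8:83972993-83996443, + strand) and *Prkacb* (chr3:146729574-146812990, - strand) 91.5%. Of the 966 windows of 28 nt in *Prkaca*, 7 were shared with *Prkacb* and 9.8% with any other gene, mainly a *Prkaca* pseudogene, and 0.0% of the windows of the 4 regulatory genes were found in another gene.

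Depth on the genes of the tables was 24555103 to 50136443 reads per RNA-Seq library and 11000015 to 31993255 per Ribo-Seq library, and the members had between 99 reads (*Prkar1b*, mesoderm Ribo-Seq) and 16038 reads (*Prkar1a*, NT Ribo-Seq) in a library. Counting error is therefore largest for *Prkar1b* in the mesoderm. Values are normalized reads, that is, reads divided by the library's effective size. FL Ribo-Seq replicate 3 stood apart, with correlations of 0.886 and 0.896 to its replicates where those correlated at 0.976, as did NT Ribo-Seq replicate 3 (0.933 and 0.934, against 0.989). Mesoderm RNA-Seq replicate 1 stood apart as well (0.939 and 0.953, against 0.987), and mesoderm Ribo-Seq replicates 1 and 2 correlated at 0.919 where each correlated with replicate 3 at 0.961. NT RNA-Seq replicate 1 also stood apart (0.946 and 0.949, against 0.970) and had the lowest mRNA of *Dcx*, a marker of young neurons, with 2675 normalized reads against 7953 and 6797 in the other NT RNA-Seq libraries and 301.0 to 345.3 in FL. *Dcx* was the 1 neural marker found there of 13 listed. Its footprints were not low in NT replicate 1 (16928, against 17087 and 14041). The sum of 3 limb mesenchyme markers (*Hoxd13*, *Msx1* and *Pdgfra*, of 7 listed) was 23116 to 28961 in FL mRNA, 13797 to 15965 in the mesoderm and 1595 to 1654 in NT. Endothelial markers, all 5 found, summed to 3336 to 4633 in FL mRNA, 4289 to 4577 in NT and 1517 to 3717 in the mesoderm, so each sample held endothelial mRNA. The mesoderm was normalized separately from NT and FL, so its marker sums are not ranked against theirs. In bulk samples such as these, fewer cells of a type and less RNA per cell cannot be told apart.

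Translational efficiency (TE) is the log2 ratio of RPFs to mRNA on the CDS, set here so that the median gene is 0. *Calm2*, *Calm3* and *Prkar1a* stood above the median gene in all 3 tissues and had the highest values of the set in each, whereas the type II regulatory subunits stayed near the median. In the mesoderm 4 of the 8 genes had a higher TE at an adjusted p under 0.05 (limma, Benjamini-Hochberg over all genes) and 0 a lower one (0 also at an unadjusted p under 0.05, in edgeR and in DESeq2), where 32.0% of all genes were higher and 34.2% lower. In NT 3 of 8 were higher and 0 lower, against 10.7% and 15.6% of all genes, and in FL 3 of 8 were higher and 0 lower, against 25.3% and 26.6%. Counts of genes higher or lower in TE here and below set no fold limit. The study's TE-high and TE-low classes also require at least a 3-fold difference from the median. With that limit 0 of the 8 genes were high and 0 low in each tissue. The median log2 TE of the 8 genes was 0.60 in the mesoderm, 0.53 in NT and 0.60 in FL, where all genes had a median of 0.00.

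**Figure D1:**
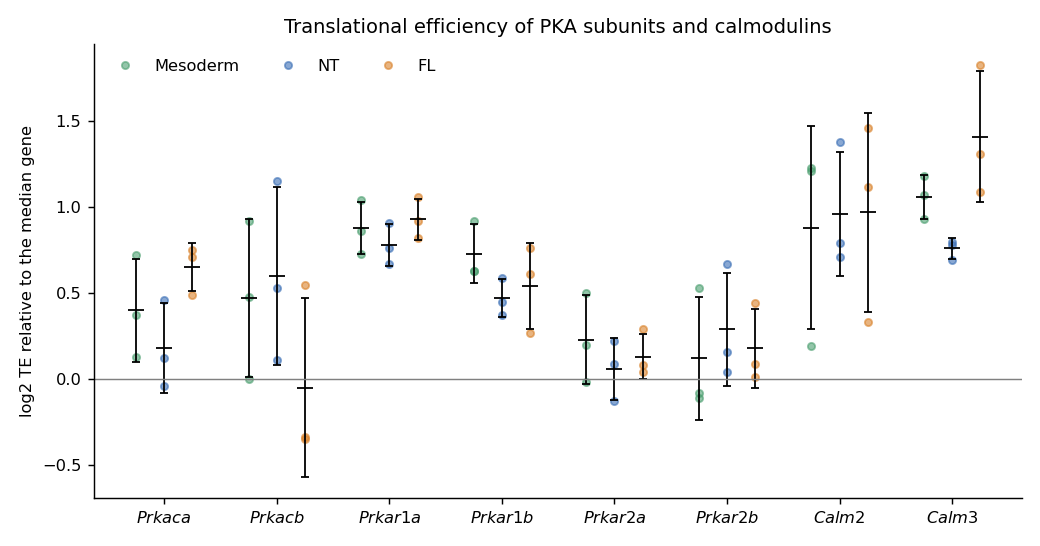
Log2 TE (y axis, 0 is the median gene of each tissue) of the 8 genes in the mesoderm, NT and FL; points are the 3 replicates and bars the mean ± SD. *Calm2*, *Calm3*, *Prkar1a* and *Prkar1b* lie above 0 in every replicate, and the highest mean is that of *Calm3* in FL, at 1.41.

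*Calm3* was higher in TE in every tissue. Its mesoderm mRNA was 2436, 2859 and 2264 normalized reads and its RPFs were 5653, 5568 and 4880. All 3 replicates had more RPFs than mRNA in normalized reads, a ratio without absolute meaning because each library was scaled. Log2 TE was 1.18, 0.93 and 1.07 with a mean of 1.06 ± 0.13 (SD, n = 3; 2.08-fold, adjusted p = 0.00032, limma). Log2 TE was 0.76 ± 0.06 in NT (adjusted p = 0.029, limma) and 1.41 ± 0.38 in FL (adjusted p = 0.007, limma). The FL replicates were 1.83, 1.31 and 1.09 and the NT replicates 0.80, 0.69 and 0.78. The change in TE between these tissues was not called (0.63, adjusted p = 0.3, limma). By rank, *Calm3* exceeded 88.8% of all genes in the mesoderm, 87.0% in NT and 90.0% in FL.

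*Calm2* passed in all 3 tissues as well, but its mesoderm replicates disagreed. Mesoderm RPFs of *Calm2* were 9025, 2556 and 4343 normalized reads and its mRNA 3755, 2181 and 1835. Replicate 2 thus had by far the fewest footprints, and log2 TE was 1.23, 0.19 and 1.21 with a mean of 0.88 ± 0.59 (SD, n = 3; adjusted p = 0.0051, limma). Without the replicate block this call was lost (adjusted p = 0.14, limma). In NT log2 TE of *Calm2* was 0.96 ± 0.36 (adjusted p = 0.018) and in FL 0.97 ± 0.58 (adjusted p = 0.03), with FL replicates of 1.46, 1.12 and 0.33. The replicates of *Calm2* and *Calm3* overlapped in each tissue, so no order between them is read.

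*Prkar1a*, the most abundant regulatory subunit, had an evenly high TE. Its mesoderm mRNA was 5140, 5947 and 5731 normalized reads and its RPFs were 10810, 10125 and 10666. The replicates lay close together, with log2 TE of 1.04, 0.73 and 0.86 and a mean of 0.88 ± 0.15 (SD, n = 3; 1.84-fold, adjusted p = 0.0013, limma). In NT it was 0.78 ± 0.12 (adjusted p = 0.027) and in FL 0.93 ± 0.12 (adjusted p = 0.017). Its paralogue *Prkar1b*, a type I subunit known for its expression in neurons, passed in the mesoderm at 0.73 ± 0.17 (adjusted p = 0.008, limma; 0.15 without the replicate block), where it had 93 to 183 normalized reads of mRNA. In NT *Prkar1b* stood at 0.47 ± 0.11 (adjusted p = 0.14) and in FL at 0.54 ± 0.25 (adjusted p = 0.14), neither of which passed, although all 3 replicates were above 0 in both.

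The type II subunits, which anchoring proteins tether to membranes and other structures, did not pass in any tissue. Log2 TE of *Prkar2a* was 0.23 ± 0.26 in the mesoderm, 0.06 ± 0.18 in NT and 0.13 ± 0.13 in FL (n = 3 each, adjusted p of 0.28, 0.86 and 0.65, limma). That of *Prkar2b* was 0.12 ± 0.36, 0.29 ± 0.33 and 0.18 ± 0.23 (adjusted p of 0.61, 0.38 and 0.55, limma). The 95% intervals allow up to 0.69 for *Prkar2a* and up to 0.82 for *Prkar2b*, so these replicates cannot tell a modest elevation from none.

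The catalytic subunits did not pass either. *Prkaca* had a log2 TE of 0.40 ± 0.30 in the mesoderm (adjusted p = 0.074, limma), 0.18 ± 0.26 in NT (0.55) and 0.65 ± 0.14 in FL (0.056), and the FL value passed without the replicate block (adjusted p = 0.023) and in DESeq2 (adjusted p = 0.046). *Prkacb* stood at 0.47 ± 0.46 in the mesoderm (adjusted p = 0.06), 0.60 ± 0.52 in NT (0.11) and -0.05 ± 0.52 in FL (0.89). Its FL replicates were -0.34, -0.35 and 0.55, with replicate 3, the library that stood apart, opposite in sign to the rest. Without that replicate *Prkacb* fell below the median gene, at -0.36 (adjusted p = 0.033, limma). It was called higher in NT without replicate 3, at 0.84 (adjusted p = 0.019), and in the mesoderm without replicate 2, at 0.69 (adjusted p = 6e-05). *Prkaca* also passed in the mesoderm without replicate 2, at 0.53 (adjusted p = 0.0018), and in FL without replicate 3, at 0.71 (adjusted p = 3.1e-09).

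Some of these calls depended on single replicates. With NT replicate 2 left out 0 of the 8 genes passed in NT, while 3 were higher without replicate 1 and 4 without replicate 3. With FL replicate 1 or 2 left out 0 passed in FL, while without FL replicate 3 there were 5 higher and 1 lower. In the mesoderm leaving out replicate 1, 2 or 3 gave counts of 4, 6 and 2, and *Calm3* (adjusted p of 0.00033, 2.2e-11 and 0.0082) and *Prkar1a* (0.0074, 1.9e-08 and 0.031) passed in each of these fits. The direction of all 3 genes that passed in each of NT and FL was kept throughout.

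The adenylyl cyclases that act upstream of PKA lay below the median gene in all 3 tissues. All 8 adenylyl cyclases of the network, which make cyclic AMP, had a lower TE in the mesoderm, with a median of -1.59, from -1.16 (*Adcy3*) to -3.33 (*Adcy1*). In NT 4 of 8 were lower (*Adcy1*, *Adcy2*, *Adcy5* and *Adcy6*, median of the list -1.05), and in FL 8 of 8 (median -2.41), where the lowest was again *Adcy1* at -3.38 ± 0.60 (SE, adjusted p = 0.0064, limma). The phospholipase C genes, whose products release calcium from stores, were lower in 10 of 10 cases in the mesoderm (median -1.69), in 1 of 8 in NT (*Plcg1*, -1.16, with *Plcb1* highest at 0.12) and in 7 of 8 in FL (median -1.65). Over the whole network 26 of 170 genes were higher and 92 lower in the mesoderm, with a median of -0.62. Of 151 network genes, 11 were higher and 42 lower in NT, and 9 were higher and 70 lower in FL. Tested directly between FL and NT, 0 of 8 adenylyl cyclases and 0 of 8 phospholipase C genes were called for a change in TE. All estimates were lower in FL, with medians of -1.50 (-2.19 to -0.53) and -1.36 (-2.22 to -0.02). That test called 0.401% of all genes, so its lack of calls cannot decide whether these lists differed between the tissues. The unlike counts in NT and FL are read neither as a tissue difference nor as its absence.

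Among the other kinases and receptors of the network few genes were called higher in TE. Of 8 protein kinase C genes 0 were higher and 2 lower in the mesoderm (*Prkcz*, -1.51, and *Prkce*, -1.07), and *Prkcz* was the single one called lower in NT (-1.63) and in FL (-1.88). All 3 *Akt* genes were lower in the mesoderm, with *Akt1* lowest at -1.57, as were 2 of 3 in NT (*Akt1* and *Akt2*) and 3 of 3 in FL. Of the 3 *Pdk* genes, symbols that stand for pyruvate dehydrogenase kinases, *Pdk3* was higher in the mesoderm (0.52) and none passed in NT or FL. Of 31 receptors with *Gpr* symbols 6 were higher and 17 lower in the mesoderm, from 1.65 (*Gpr182*) to -4.33 (*Gpr21*), while NT had 1 higher and 11 lower of 25, and FL 0 higher and 14 lower of 25. The study drew the network to show its mesoderm data, so these counts describe its genes and are not independent evidence of a direction.

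NT and FL were compared directly within their table, and 3 of the 4 regulatory subunits of PKA had the largest changes of the set. *Prkar1b*, *Prkar2a* and *Prkar2b* were lower in FL than in NT in both mRNA and RPFs, and by nearly the same factor in each. For mRNA 4 of the 8 genes were lower in FL and 0 higher at an adjusted p under 0.05, where 12.3% of all genes were lower and 10.3% higher. For RPFs 4 were lower and 1 higher, where 22.7% were lower and 22.6% higher. The share of all genes whose NT and FL replicates did not overlap was not counted. Non-overlap is therefore given below only as a description of the values.

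*Prkar1b* differed most. Its NT mRNA was 872, 992 and 1115 normalized reads and its FL mRNA 146, 223 and 164. The groups lay far apart, with mRNA 5.62-fold lower in FL (log2 change -2.49 ± 0.24 SE, adjusted p = 4.3e-06, limma). NT RPFs were 1339, 1380 and 1471 and FL RPFs 249, 341 and 199, a 5.43-fold difference in the same direction (-2.44 ± 0.24, adjusted p = 4.2e-06). The mRNA of the neuronal marker *Dcx* moved in the same direction, from a mean of 5808 in NT to 330 in FL, and its part in this result was not tested.

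The type II subunits followed with smaller differences. *Prkar2b* mRNA was 918, 1421 and 1470 normalized reads in NT and 631, 642 and 545 in FL, so that the lowest NT library, NT RNA-Seq replicate 1, still exceeded every FL library. The log2 change was -1.04 ± 0.21 (SE, 2.06-fold lower, adjusted p = 0.0024, limma), and that of its RPFs, 1490, 1617 and 1545 in NT and 637, 686 and 744 in FL, was -1.17 ± 0.21 (adjusted p = 0.00069). *Prkar2a* mRNA was 1487, 1782 and 1678 in NT and 729, 920 and 1050 in FL. It too did not overlap between the tissues, with a log2 change of -0.89 ± 0.19 in mRNA (adjusted p = 0.0038) and -0.84 ± 0.19 in RPFs (adjusted p = 0.0038). All 3 genes passed under every alternative run for both measures, including each library left out in turn. *Prkar1a* was not called, although its mRNA did not overlap either (6726, 7134 and 7058 in NT, and 5563, 6016 and 5656 in FL), at -0.28 ± 0.17 in mRNA (adjusted p = 0.29) and -0.15 ± 0.17 in RPFs (adjusted p = 0.47).

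**Figure D2:**
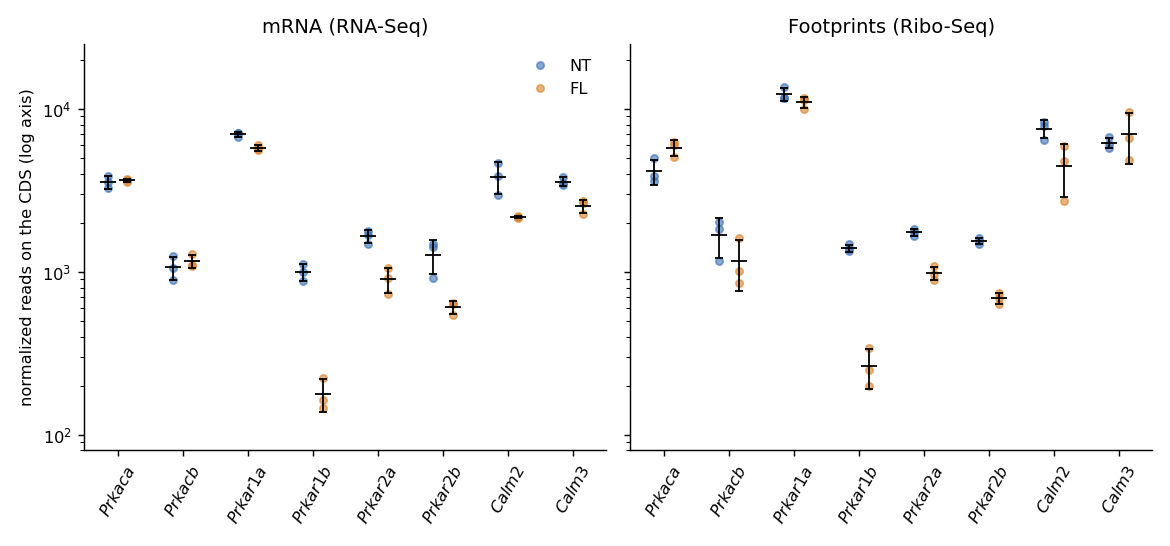
Normalized reads on the CDS (log axis) of the 8 genes in NT and FL, for mRNA on the left and footprints on the right; points are the 3 replicates and bars the mean ± SD. NT and FL points of *Prkar1b*, *Prkar2a* and *Prkar2b* do not overlap in either panel, nor do those of *Calm2*. Points of *Prkar1a* and *Calm3* overlap in footprints but not in mRNA, those of *Prkaca* in mRNA but not in footprints, and those of *Prkacb* in both. The share of all genes without overlap was not counted.

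Of the catalytic subunits, *Prkaca* had more RPFs in FL, a call close to the threshold. Its mRNA was 3871, 3243 and 3531 normalized reads in NT and 3734, 3647 and 3564 in FL, which overlapped (log2 change 0.04 ± 0.19 SE, adjusted p = 0.91, limma). Its RPFs were 3849, 3588 and 4975 in NT against 6284, 5970 and 5030 in FL, which did not, although NT replicate 3 came close to the lowest FL library. The log2 change was 0.49 ± 0.19 (adjusted p = 0.048), and the call was lost in edgeR (adjusted p = 0.066), when centred on the median (0.065), with the replicate number as a block (0.086) and without NT replicate 1 or 2 or FL replicate 1 or 2 (0.15 to 0.2). *Prkacb* was not called for mRNA (0.13 ± 0.27, adjusted p = 0.82) or RPFs (-0.54 ± 0.27, adjusted p = 0.12), and its RPFs were called lower without FL replicate 3 (-0.80, adjusted p = 0.015) or NT replicate 3 (-0.78, adjusted p = 0.042).

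The calmodulin genes gave different calls in this comparison, a difference that was not itself tested. *Calm2* mRNA was 2966, 4679 and 3863 normalized reads in NT and 2151, 2185 and 2167 in FL, a log2 change of -0.80 ± 0.27 (SE, adjusted p = 0.047, limma). Its RPFs were 7879, 8283 and 6451 in NT against 5917, 4759 and 2734 in FL, a change of -0.82 ± 0.27 (adjusted p = 0.025). Neither group pair overlapped, but both calls were near the threshold. Each was lost in 4 of the 6 fits that left out a replicate of 1 tissue (adjusted p up to 0.21 for mRNA and 0.095 for RPFs, both without NT replicate 2), and the RPF change was -0.50 (adjusted p = 0.055) without FL replicate 3. With the replicate number as a block the mRNA call was lost too (adjusted p = 0.063). *Calm3* mRNA was 3406, 3500 and 3815 in NT and 2699, 2646 and 2264 in FL. These values did not overlap either, but the change did not pass (-0.50 ± 0.23, adjusted p = 0.15, limma). The RPF mean of *Calm3* hardly differed (0.13 ± 0.23, adjusted p = 0.66).

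**Figure D3:**
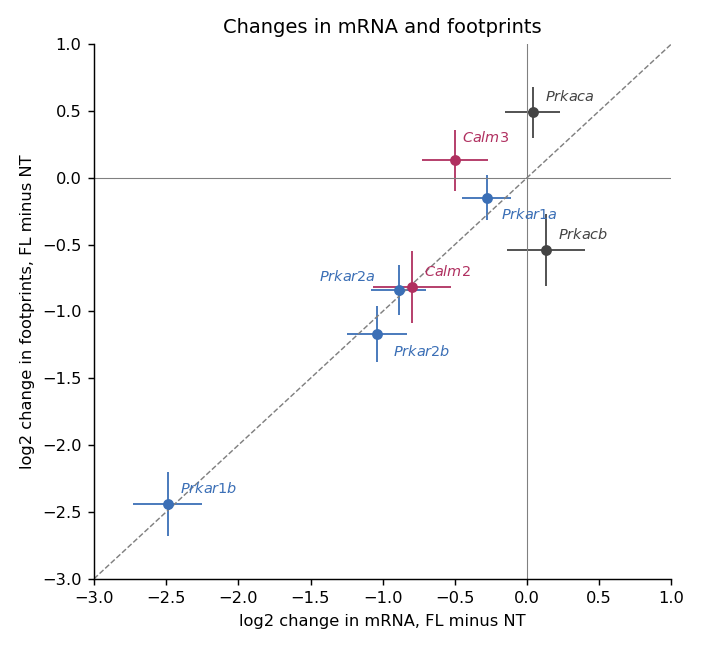
Log2 change in mRNA (x axis) against log2 change in footprints (y axis), FL minus NT, for the 8 genes, with SE bars from the model; the dashed line marks equal change. *Prkar1b*, *Prkar2a*, *Prkar2b* and *Calm2* lie on or near the line, *Calm3* and *Prkaca* above it and *Prkacb* below it, by differences that did not pass the test of a change in TE.

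The change in TE itself, FL minus NT, was tested as the interaction of library type and tissue. None of the 8 genes was called at an adjusted p under 0.2 with at least a 2-fold change, where 0.401% of all genes were called, and 0 passed at an adjusted p under 0.05 in limma, where 0.0356% of all genes did. At an unadjusted p under 0.05 the count was also 0 of 8 in limma, in edgeR and in DESeq2. The regulatory subunits had changes near 0, at 0.13 for *Prkar1a* (95% interval -0.38 to 0.63), 0.05 for *Prkar1b* (-0.70 to 0.80), 0.05 for *Prkar2a* (-0.54 to 0.64) and -0.13 for *Prkar2b* (-0.78 to 0.51). The interval of *Prkar1b* is the widest of these subunits, and changes within any of these intervals could not be detected with these replicates. *Calm2* was also near 0, at -0.02, with a wider interval (-0.84 to 0.80). The estimates were larger for *Calm3*, at 0.63 (-0.07 to 1.33, adjusted p = 0.3, limma), and *Prkaca*, at 0.44 (-0.13 to 1.01, adjusted p = 0.33). *Prkacb* stood at -0.67 (-1.50 to 0.16, adjusted p = 0.33). Without FL replicate 3, *Calm3* passed at an adjusted p under 0.05 (0.79, adjusted p = 0.036, limma) but did not reach 2-fold, in a fit that called 1659 genes higher and 1920 lower at that threshold where all libraries gave 1 and 3.

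Levels of different genes were set side by side as normalized reads per kilobase of CDS, with the longest coding isoform less the codons that were not counted. *Prkar1a* was the major regulatory subunit throughout. In the mesoderm its mRNA level was 5162 per kilobase, against 733 for *Prkar2a*, 566 for *Prkar2b* and 127 for *Prkar1b*. Its share of regulatory mRNA was 78.4% ± 1.41 (SD, n = 3) in the mesoderm and 78.5% ± 1.21 in FL, and 65.4% ± 2.58 in NT. Its share of regulatory footprints was higher than its share of mRNA in each tissue, at 84.8% ± 1.29, 85.8% ± 1.65 and 73.2% ± 1.21 respectively. *Prkar1b* supplied 9.28% ± 0.664 of regulatory mRNA in NT and 2.41% ± 0.423 in FL, while *Prkar2a* supplied 14.6% ± 0.508 and 11.6% ± 1.86. These shares are descriptions without a test.

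**Figure D4:**
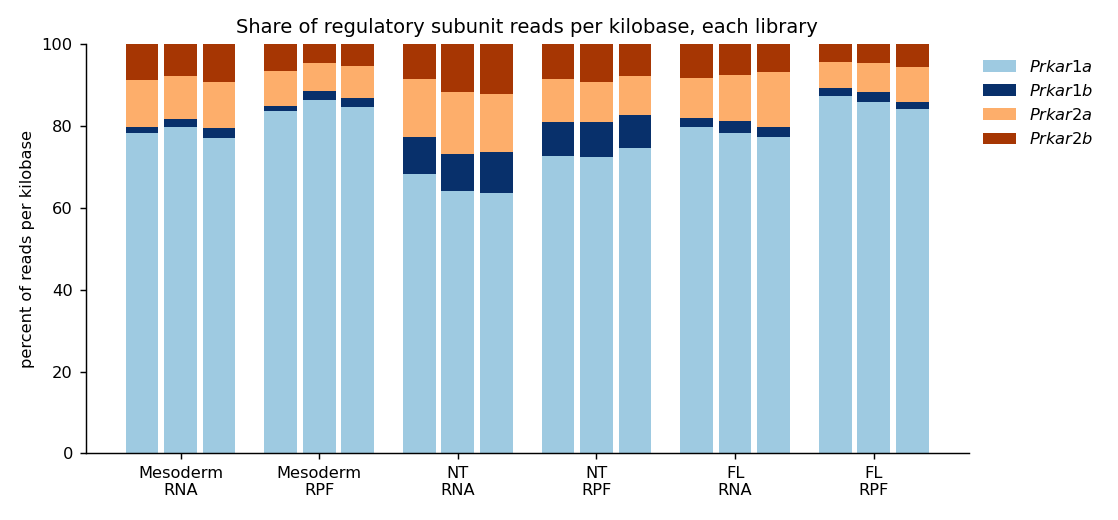
Percent of regulatory subunit reads per kilobase (y axis) supplied by each of the 4 regulatory genes, 1 bar per library, in the 3 tissues for mRNA (RNA) and footprints (RPF). *Prkar1a* fills 63.6% to 68.3% of the bars of NT mRNA and 77.4% to 79.8% of those of FL mRNA, and *Prkar1b* is widest in NT.

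*Prkaca* supplied most of the catalytic reads, with 79.4% ± 7.19 of the mRNA per kilobase in the mesoderm, 79.1% ± 4.14 in NT and 78.3% ± 1.26 in FL. These shares depend on the *Prkacb* isoform, and which isoform was counted is not known. With its shorter principal isoform, *Prkacb* mRNA in FL was 1161 per kilobase in place of 1017, which makes the share of *Prkaca* smaller. The ratio of summed regulatory to summed catalytic mRNA was 1.94, 2.35 and 2.28 in the NT libraries and 1.32, 1.53 and 1.48 in the FL libraries. The tissues did not overlap in this ratio, nor in that of footprints, which was 2.60, 2.83 and 2.78 in NT and 1.70, 1.81 and 1.70 in FL. In the mesoderm it was 1.37 ± 0.15 for mRNA and 1.72 ± 0.11 for footprints. In each tissue the mean ratio was thus higher in footprints than in mRNA.

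Features of the transcript did not enter the choice of the members, whose CDSs ran from 450 to 1251 nt. Their CDSs had a median of 1101 nt, against 1248 nt for the *Pdk* genes, 1374 nt for the *Gpr* receptors, 1443 nt for the *Akt* genes, 2024 nt for protein kinase C, 3398 nt for the adenylyl cyclases and 3626 nt for the phospholipase C genes. The 5' leaders of their principal isoforms ran from 138 nt (*Prkar1b*) to 314 nt (*Prkar2a*), a median of 242 nt. Median leaders were 250 nt for protein kinase C, 231 nt for *Gpr* receptors and 214 nt for adenylyl cyclases. They were 122 nt for phospholipase C, 146 nt for *Pdk* and 370 nt for *Akt* genes, so leader length did not set the members apart. Of the members, 5 of 8 held no upstream AUG. The exceptions were *Calm2* and *Prkar2b*, with 1 each, and *Prkar1a*, with 2, so *Prkar1a* and *Calm2* combined upstream AUGs with a TE above the median gene. By comparison 3 of 8 adenylyl cyclases, 7 of 10 phospholipase C genes, 4 of 8 protein kinase C genes, 1 of 3 *Akt* genes, 3 of 3 *Pdk* genes and 10 of 31 *Gpr* receptors had none. The share over all genes was not counted. Alternative leaders exist for most of these genes, such as 56 to 313 nt for *Prkar1a*, and which of them was used in these tissues was not measured here.

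Across the 12 NT and FL libraries each member was compared with the other 149 network genes of that table by Pearson's r of log2(normalized reads + 1), as a description, since all genes share the same libraries and the split by assay and tissue. The closest gene to *Calm3* was *Prkar1a* (r = 0.94) and the reverse also held, and the closest to *Calm2* was *Grb2*, an adaptor of receptor tyrosine kinases (0.87). *Prkar2b* was closest to *Prkar1b* (0.95), *Prkar1b* to *Gpr56* (0.98) and *Prkar2a* to *Ntrk2*, a neurotrophin receptor (0.95). *Prkaca* was closest to *Mapk15* (0.94) and *Prkacb* to *Kdr*, the endothelial VEGF receptor (0.84).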

How the data were processed

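The members and lists were chosen with earlier results of these data known, and 1 gene that the rule selects is not reported here. The authors trimmed reads with cutadapt, removed rRNA, tRNA and snRNA reads, aligned with Bowtie2 (named in the submitters' processing notes) to canonical UCSC known gene isoforms of mm10 and kept unique reads. The deposited signal is, for each gene, the number of reads that fell on codons of the CDS other than the opening 15 and closing 5, which the authors scaled by DESeq effective library sizes. The 2 tables were normalized separately, so each test stayed within 1 table.

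For TE, log2(normalized reads + 1) was modelled on library type with the replicate number as a block in limma 3.58.1 (under R 4.3.3), using moderated variances that follow the mean, and the Ribo-Seq term was centred on the median gene. Changes between FL and NT came from 1 fit of 12 libraries without a block. Fold changes are on that log2 scale, and adjusted p-values are Benjamini-Hochberg over all genes. In the mesoderm same-numbered libraries deviated together (r of 0.74, 0.58 and 0.57), and the methods state that the cells of a sample were split between both assays. The block was also used for NT (r of -0.28, 0.35 and 0.05) and FL (0.05, 0.12 and 0.09), as the study's model has it, although same-numbered libraries did not all deviate together there.

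Division by 1 step per library gave whole reads for 100.0% of values (tolerance 0.1 read). On these reads edgeR 4.0.16 called 3864 genes higher and 4149 lower in TE in the mesoderm, 1061 and 1599 in NT, and 2820 and 2887 in FL, and DESeq2 1.42.0 was also run. Other alternatives were pseudocounts of 0.1 and 8, a mean of at least 100 normalized reads, no centring, and each replicate left out. The fits were also run on simulated reads with 200 changed genes. Those reads had a fixed spread and no replicate that stood apart, so that run does not bear on such replicates here.

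Named genes were the 8 genes described, for each list the genes with the highest and lowest value and those called where 5 or fewer were, and for each member the most correlated network gene. Marker genes were those of a fixed list with a symbol paired to an identifier. Isoforms, lengths and sequences are from GENCODE M21 (principal isoform, then longest CDS).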

Additional observations from a re-analysis of the deposited data

How the results depend on the processing

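Of 552 alternative values for single members, 498 kept their direction and side of the threshold, 29 no longer passed, 11 newly passed and 14 changed sign, all 14 of them small values that had not passed. The cause was not tested, except that a fit with a replicate left out has fewer samples.

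Without the replicate block, members higher in mesoderm TE numbered 2 (4 with it) and all genes higher 2036 (3866 with it). With the replicate block, the change in TE was called higher for 1 gene and lower for 5 (14 and 31 without it), and 0 members were higher in RPFs (1 without it). The block changed no other member count by over 1.5 times. Same-numbered NT and FL libraries did not deviate together (r from -0.58 to -0.02), and 0 of 6 libraries of either assay correlated best with their own number. DESeq2 called 570 genes higher and 286 lower in TE change. The count of members higher in RPFs, *Prkaca*, was 0 in edgeR and when centred on the median.

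With a replicate left out, members higher in TE numbered 2 to 6 in the mesoderm, 0 to 4 in NT and 0 to 5 in FL, and members lower 0 to 1 in FL. Genes higher in TE numbered 200 to 1563 in NT and 659 to 4444 in FL, and genes lower 774 to 2156 and 1523 to 4475. The change in TE was called, at an adjusted p under 0.2 and 2-fold, for 0 members, and for 0 to 1805 genes higher and 0 to 2167 lower, with the large counts without FL replicate 3 or NT replicate 3 (1000 and 1235). Genes higher in mRNA numbered 755 to 1261, and in RPFs 1297 to 3548 higher and 1602 to 3502 lower, with 0 to 1 member higher.

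Signs changed within the range of values with a replicate left out for TE of *Prkar2b* in the mesoderm (-0.08 to 0.22), *Prkar2a* in NT (-0.03 to 0.14) and *Prkacb* in FL (-0.36 to 0.09), and for the change in TE of *Prkar1b* (-0.06 to 0.19), *Prkar2a* (-0.05 to 0.13), *Prkar2b* (-0.26 to 0.06) and *Calm2* (-0.26 to 0.30, with 0.04 in edgeR and 0.07 in DESeq2). They also changed for *Prkaca* mRNA (-0.02 to 0.11) and for RPFs of *Calm3* (-0.12 to 0.37). Per kilobase, other CDS lengths moved the regulatory to catalytic ratio by less than the SD. The share of *Prkaca* among catalytic reads was smaller with the principal isoform of *Prkacb*. The planned shares of calmodulin reads by gene were not run.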
